A study of Mus musculus with 12 samples.

Results

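The heat shock and chaperone genes described here are 10 genes taken from a fixed list: Hspa1a, Hspa1b, Hspb1, Dnajb1, Hsph1, Hsp90aa1, Hspa8, Hspa5, Bag3 and Hspe1. All 10 were found, by gene identifier, among the 19477 genes that had values at either age. RNA of dorsal epidermis of mice with C57BL/6 background was measured in 12 libraries, 3 in each of 4 groups. Every mouse, controls included, carried floxed alleles of both Vdr (VDR fl/fl), the vitamin D receptor, and Med1 (Med1 fl/fl), a Mediator subunit that acts as its coactivator. The double knockout (DKO) mice were K14 Cre+/-, so that Cre recombinase is made where keratin 14 is, in basal keratinocytes, and the deletion passes to their daughters while other cells of the tissue keep the floxed genes. The control mice were K14 Cre-/-. Both genotypes were taken at postnatal day 36 (P36) and at 6 months. In all groups alike the dermal side of the skin was warmed in a 60 °C bath for 1 minute before the epidermis was taken off. There is no unheated library, so the share of any level that this step set cannot be told apart, and the protocol gives no difference in it between groups.

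Heat shock proteins are molecular chaperones that bind unfolded protein and help it fold, be held soluble or be degraded. Hsf1, the heat shock factor, drives the inducible genes by binding repeats of GAA and TTC in their promoters. In the endoplasmic reticulum (ER) and in mitochondria, separate chaperones are set by the unfolded protein responses of those compartments. In keratinocytes, small heat shock proteins, Hspb1 among them, are abundant in the differentiating layers.

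The promoters are shown because they hold the elements named above, and because Hspa1a and Hspa1b are nearly the same sequence. The sequences are from RefSeq on GRCm38.p6, the 250 bases before the annotated start, 5′ to 3′ on the gene's strand. In Hspa1a (chr17:34972157-34972406, minus strand), Hspa1b (chr17:34959239-34959488, minus strand) and Hspb1 (chr5:135887669-135887918, plus strand), capitals mark the heat shock element pair GAANNTTC. In Hspe1 (chr1:55087898-55088147, plus strand) they mark a run of overlapping GAANNTTC and TTCNNGAA pairs, and in Hspa5 (chr2:34771840-34772089, plus strand) the ER stress element, CCAAT and CCACG at their fixed spacing.
Hspa1a: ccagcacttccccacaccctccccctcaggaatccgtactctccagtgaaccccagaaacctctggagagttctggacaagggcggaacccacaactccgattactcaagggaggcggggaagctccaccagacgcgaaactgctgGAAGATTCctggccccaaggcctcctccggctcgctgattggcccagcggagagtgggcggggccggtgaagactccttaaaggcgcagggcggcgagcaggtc
Hspa1b: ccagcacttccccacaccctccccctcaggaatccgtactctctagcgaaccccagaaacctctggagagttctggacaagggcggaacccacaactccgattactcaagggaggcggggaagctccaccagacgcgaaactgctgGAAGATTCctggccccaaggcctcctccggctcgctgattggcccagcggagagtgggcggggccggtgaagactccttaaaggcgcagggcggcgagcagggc
Hspb1: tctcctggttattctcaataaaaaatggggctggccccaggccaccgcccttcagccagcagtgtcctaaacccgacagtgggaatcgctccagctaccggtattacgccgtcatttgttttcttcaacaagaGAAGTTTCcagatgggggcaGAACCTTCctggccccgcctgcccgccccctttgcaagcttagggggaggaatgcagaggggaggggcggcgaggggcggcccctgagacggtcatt
Hspe1: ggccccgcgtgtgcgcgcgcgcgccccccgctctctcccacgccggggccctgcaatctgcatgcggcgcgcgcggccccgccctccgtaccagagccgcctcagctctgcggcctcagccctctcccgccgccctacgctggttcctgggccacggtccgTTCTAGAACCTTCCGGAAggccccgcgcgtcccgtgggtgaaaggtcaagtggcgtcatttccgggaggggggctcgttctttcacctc
Hspa5: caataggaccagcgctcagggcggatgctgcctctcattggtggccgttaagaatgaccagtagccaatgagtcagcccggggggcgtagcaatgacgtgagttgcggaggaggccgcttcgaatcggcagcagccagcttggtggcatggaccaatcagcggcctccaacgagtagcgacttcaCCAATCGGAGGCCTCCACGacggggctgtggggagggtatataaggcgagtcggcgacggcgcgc

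The Hspa1a and Hspa1b windows differed at 3 of 250 positions, and in both the element began at −104 relative to the start. Hspb1 held 2 such pairs, at −117 and −97. In Hspe1 the run began at −89, and in Hspa5 the ER stress element began at −65. Of 32851 promoter windows of the same length, searched on both strands, 6.69% held GAANNTTC, 7.17% held TTCNNGAA, 12.8% held either and 0.113% held the ER stress element. Some windows hold both pairs, as the Hspe1 run does. Of the other members, Hsph1 held 1 TTCNNGAA in each of its 2 windows, while the windows of Dnajb1 and Bag3 held neither pair. The table had an entry for 8 of the 10 members, and Hsp90aa1 and Hspa8 are named only. A match is a description of the letters and shows no binding.

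Levels are given as FPKM, which scales the fragments of a gene by its length and by the library. The number of reads is unknown, so no counting error can be given. The 12 libraries summed to 446600 to 554400 FPKM, with 446600 to 473300 in the 6-month controls and 507100 to 529000 in the 6-month DKO libraries. Keratinocyte markers were present throughout, with 14 of 15 measured and a summed level of 7420 to 25360 FPKM. Whether each library comes from its own animal is not in the labels, so the p-values rest on the spread between libraries, which may be technical. Differences are log2(FPKM + 1), DKO minus control, tested with limma across all genes and called at an adjusted p below 0.05. The targeted gene Vdr went against the label, with no lower level in DKO: 68.1 ± 4.16 FPKM in control and 83.5 ± 6.06 at P36 (SD, n = 3; limma adjusted p = 0.0573), and 40.5 ± 11.6 and 48.1 ± 5.49 at 6 months (limma adjusted p = 0.302). Med1 fell at P36, from 13.8 ± 0.504 to 9.11 ± 1.11 FPKM (limma adjusted p = 0.0083), and stood at 14.2 ± 2.21 and 11.6 ± 0.256 FPKM at 6 months (limma adjusted p = 0.13). The deposited values cannot show whether the Vdr transcripts lack the deleted part. DKO below therefore means the libraries labelled DKO.

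**Figure D1:**
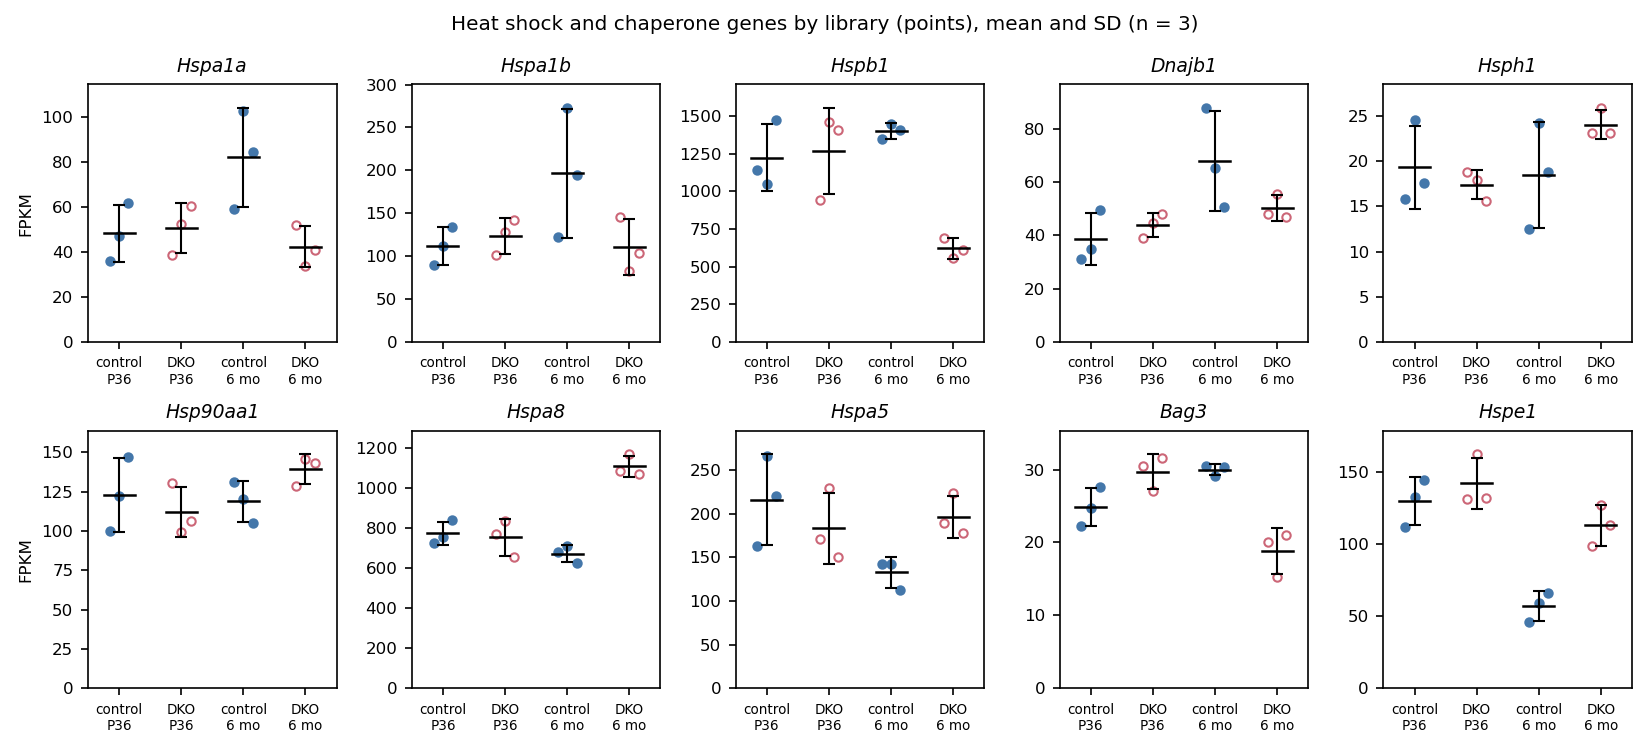
FPKM of the 10 genes (vertical axis, from 0) in each of the 12 libraries (points) for control and DKO at P36 and 6 months, with the mean and SD of 3 libraries as bars. At P36 the genotypes overlap for each gene, while at 6 months they separate for Hspa1a, Hspb1, Hspa8, Hspa5, Bag3 and Hspe1.

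Hspb1, a small heat shock protein that binds actin-associated and unfolded proteins, and Hspa8, the constitutive cytosolic HSP70, were the most abundant members. In P36 controls their means were 1223 and 773 FPKM, and their library ranges did not overlap (1053 to 1476 and 727 to 838 FPKM). Hspb1 ranked 67th of the 12249 genes with a mean of at least 1 FPKM, and Hspa8 ranked 120th. Hspa5 (the ER HSP70, also called BiP) followed at 216 FPKM, with 163 to 266 in single libraries. Hspe1, Hsp90aa1 and Hspa1b came next at 129.5, 122.9 and 111.8 FPKM with overlapping ranges, so their order is not resolved. Hspa1a had 48.2 FPKM and Dnajb1 38.5, again with overlapping ranges. Bag3 at 24.9 FPKM and Hsph1 at 19.3 FPKM were the lowest, and they overlapped too.

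Hspb1 and Hspa8 changed places at 6 months in DKO. Hspb1 led in the other 3 groups, while in the 6-month DKO libraries Hspa8 had a mean of 1107 FPKM (1071 to 1167) and Hspb1 621 FPKM (560 to 693). Among all genes Hspb1 ranked 32nd in 6-month controls and 129th in 6-month DKO. The lowest member also differed: Hsph1 in the 6-month controls, at 18.5 FPKM, and Bag3 in the 6-month DKO libraries, at 18.8 FPKM.

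At P36 none of the 10 genes was called. Of all 12660 genes tested there, 23.3% were called by limma, 18% higher and 5.32% lower. The genotypes overlapped for each of the 10, whereas 39.6% of all genes had groups that did not overlap. The median size of the log2 difference was 0.13 over the 10 genes and 0.19 over all genes. At an unadjusted p under 0.05, 1 gene passed, Bag3, a co-chaperone that links HSP70 to selective autophagy. Beside these values, 18 of 19 hair shaft and matrix markers were lower in the P36 DKO libraries and none higher. Their sums were 28450 to 32430 FPKM in control and 11690 to 15820 in DKO. Keratinocyte markers summed to 7420 to 9316 FPKM in control and 12220 to 15520 in DKO, with 3 of 14 higher and 2 lower. Of 16 immune cell markers 13 were higher and none lower. The part of these markers in the members' values was not tested.

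Bag3 was measured at 22.3, 24.7 and 27.6 FPKM in the P36 controls and at 30.4, 27.1 and 31.6 FPKM in DKO. All but 1 of the DKO libraries lay above the controls (log2 difference 0.25, 95% interval 0.0018 to 0.50, limma adjusted p = 0.141). For Hspb1 the P36 values were 1142, 1053 and 1476 FPKM in control and 942, 1460 and 1410 FPKM in DKO. Its interval ran from −0.44 to 0.52, so a difference of up to that size is not resolved by these libraries. Hspa8 had the narrower interval of −0.35 to 0.26, around 773 ± 58.1 and 753 ± 92.7 FPKM. Hspa5 ranged widely in control, 163, 266 and 220 FPKM, against 171, 229 and 150 in DKO, and an interval of −0.71 to 0.25. The authors' deposited table lists all 10 at a q-value under 0.05 at P36, where it lists 69.9% of its genes so. That includes Hspa8 with a log2 ratio of −0.040 in the authors' deposited table, while in the FPKM columns its genotypes overlap.

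**Figure D2:**
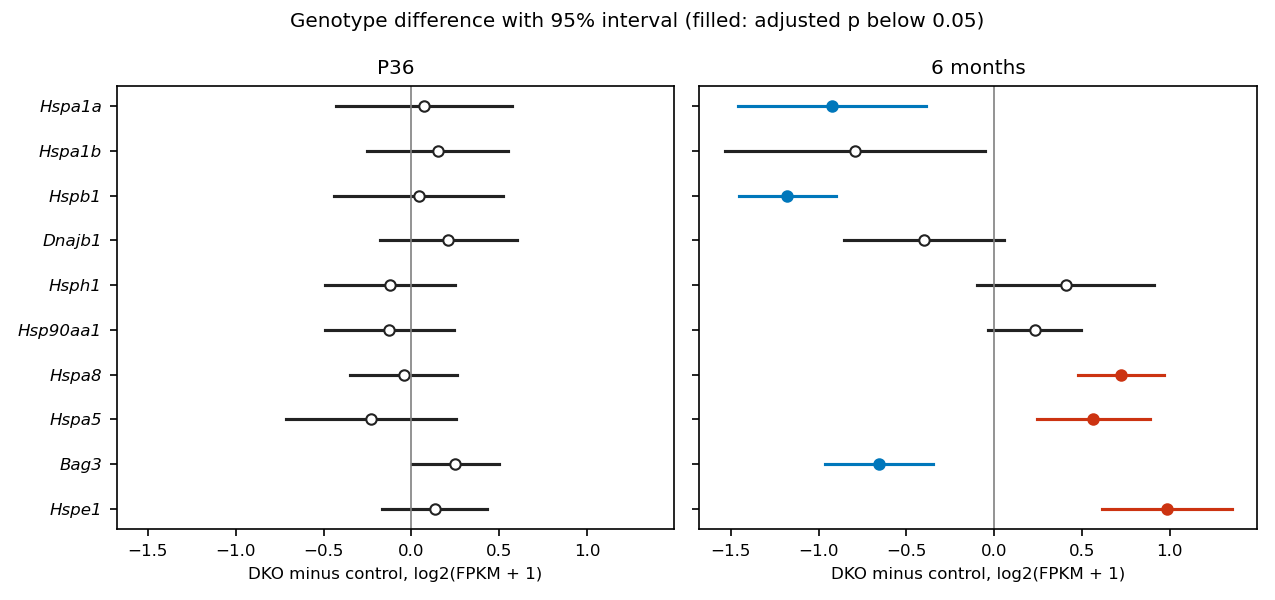
Genotype difference (horizontal axis, log2(FPKM + 1), DKO minus control) with its 95% interval for each gene at P36 (left) and 6 months (right). Filled points passed an adjusted p below 0.05: none at P36, and at 6 months 3 higher (red) and 3 lower (blue).

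At 6 months 6 of the 10 genes were called, 3 higher and 3 lower in DKO. Of all 12594 genes tested at that age 41.3% were called, 23.2% higher and 18.2% lower. Groups did not overlap for 6 of the 10 genes, the ones called, against 55.7% of all genes. The median size of the difference was 0.69 for the 10 genes and 0.36 over all genes. The lower genes were Hspb1, Hspa1a and the co-chaperone Bag3. The higher ones were Hspa8, Hspa5 and Hspe1, the last being the co-chaperonin of mitochondrial HSP60. The genes not called went both ways, Hspa1b (−0.79) and Dnajb1 (−0.40) down and Hsph1 (0.41) and Hsp90aa1 (0.23) up. The 6 called genes thus did not share 1 direction. Beside these values, keratinocyte markers also differed: 7 of 13 were lower and 2 higher in DKO, and their summed level was 17930 to 25360 FPKM in control and 11030 to 13980 in DKO. In bulk tissue fewer cells of a type and less RNA per cell cannot be told apart, and the part of these markers in the members' differences was not tested.

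Hspb1 had the largest difference of the 10. The controls had 1348, 1451 and 1408 FPKM and the DKO libraries 693, 560 and 612 FPKM. Every control was above every DKO library, and the control spread was small. The mean fell from 1403 ± 51.8 to 621 ± 67.3 FPKM (SD, n = 3), a log2 difference of −1.18 (SE 0.12, limma adjusted p = 0.00063).

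Bag3, whose protein forms a complex with small heat shock proteins and HSP70, was measured at 30.4, 29.1 and 30.4 FPKM in control and 20.1, 15.3 and 21.1 FPKM in DKO. The controls lay close together and above all DKO libraries. Bag3 fell by 0.66 on the log2 scale (SE 0.13, limma adjusted p = 0.0073). It overlaps the annotated gene 2610306O10Rik on the same strand, so its value could take in reads of that gene.

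Hspa1a and Hspa1b encode the inducible cytosolic HSP70. Hspa1a had 59.0, 102.8 and 84.2 FPKM in control and 52.0, 33.9 and 41.0 FPKM in DKO. The groups did not overlap, but the lowest control and the highest DKO library were close (log2 difference −0.92, SE 0.23, limma adjusted p = 0.0165). Without control replicate 3 the difference was −0.89 (limma adjusted p = 0.0508), and without DKO replicate 2 it was −0.78 (limma adjusted p = 0.0627), so the call did not hold without either library. Hspa1b had 122, 273 and 195 FPKM in control and 146, 82.1 and 103 FPKM in DKO. Here control replicate 1 lay below DKO replicate 1, and the difference of −0.79 was not called (SE 0.32, limma adjusted p = 0.0822). Without that control library it was −1.096 (limma adjusted p = 0.0225).

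These 2 genes are best read together. Of the 50-base windows of the annotated transcripts, the length of the reads, 58.8% of Hspa1a and 62.3% of Hspa1b occur exactly in the other gene, and none occurs in Hspa8. The sources used here do not give how the counting split such reads. Hspa1b made up 67.4% to 73.8% of their sum in all 12 libraries. The sum was 181, 376 and 279 FPKM in 6-month controls and 198, 116 and 144 in DKO, which overlap. Its difference was −0.84 (SE 0.29, limma adjusted p = 0.0547), just short of a call. Hspa1a also overlaps an annotated gene on the other strand, and the sources used here do not say whether the counting used strand.

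Dnajb1, the J-domain partner that loads clients onto inducible HSP70, was measured at 87.9, 65.2 and 50.7 FPKM in control and 48.0, 55.7 and 46.9 FPKM in DKO. One control library lay within the DKO range. Dnajb1 was not called (log2 difference −0.40, 95% interval −0.85 to 0.06, limma adjusted p = 0.139), and without control replicate 3 its difference was −0.59 (limma adjusted p = 0.0383).

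Hsph1, the HSP110 that exchanges nucleotide on HSP70, and Hsp90aa1, the inducible HSP90, were not called. Hsph1 had 12.5, 24.2 and 18.8 FPKM in control and 23.2, 25.9 and 23.2 in DKO (log2 difference 0.41, limma adjusted p = 0.168). Without control replicate 2, the only control inside the DKO range, its difference was 0.61 (limma adjusted p = 0.0455). Hsp90aa1 had 131, 120 and 105 FPKM in control and 128, 146 and 143 in DKO, with 1 control above the lowest DKO library (0.23, 95% interval −0.03 to 0.49, limma adjusted p = 0.139).

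Hspa8, which folds new protein and uncoats clathrin vesicles, had 680, 708 and 624 FPKM in control and 1084, 1167 and 1071 FPKM in DKO. The lowest DKO library was well above the highest control. The rise was from 671 ± 42.8 to 1107 ± 52.0 FPKM (SD, n = 3), a ratio of 1.65 and a log2 difference of 0.72 (SE 0.11, limma adjusted p = 0.0022). Hspa8 overlaps the annotated genes Snord14c, Snord14d and Snord14e on the same strand, so its value could take in reads of those. Of the cytosolic HSP70 genes Hspa8 was called higher and Hspa1a lower. The sum of Hspa1a and Hspa1b was not called (log2 difference −0.84, limma adjusted p = 0.0547).

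In the ER, Hspa5 had 143, 142 and 113 FPKM in control and 189, 223 and 177 FPKM in DKO. The groups did not overlap, and Hspa5 rose by 0.57 (SE 0.14, limma adjusted p = 0.0150). When library totals were computed without keratin and cornified envelope genes, the difference was 0.37 and the call was lost (limma adjusted p = 0.0668).

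Mitochondrial Hspe1 had 46.0, 59.0 and 66.0 FPKM in control and 98.8, 127.1 and 113.4 FPKM in DKO. The lowest DKO library was well above the highest control. Hspe1 rose from 57.0 ± 10.1 to 113 ± 14.1 FPKM (SD, n = 3), a log2 difference of 0.98 (SE 0.16, limma adjusted p = 0.0031). Hspe1 lies beside and overlaps Hspd1 on the other strand and has 6 annotated pseudogene copies, so its value could take in reads of those. The authors' deposited table again lists all 10 genes at a q-value under 0.05 at 6 months, where it lists 80.6% of its genes so.

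The genotype difference itself was compared between the ages, as 6 months minus P36, over all 12 libraries. Each table holds 1 age, so age and table cannot be told apart. The genotypes also differed in cell type markers at each age, and the part of that in this comparison was not tested. Of the 10 genes 6 passed, against 34.9% of 13280 genes: Hspb1 (−1.22, SE 0.25, limma adjusted p = 0.0034), Bag3 (−0.91, SE 0.17, limma adjusted p = 0.0026) and Hspa1a (−0.998, SE 0.35, limma adjusted p = 0.0452) downward, and Hspe1 (0.85, SE 0.21, limma adjusted p = 0.0106), Hspa5 (0.80, SE 0.27, limma adjusted p = 0.0412) and Hspa8 (0.77, SE 0.15, limma adjusted p = 0.0034) upward. For Hspb1, Bag3, Hspa8 and Hspe1 the call held under all 19 alternatives tried. For Hspa1a it was lost when single libraries were left out: P36 control replicates 1 and 2, P36 DKO replicates 2 and 3, 6-month control replicates 2 and 3, or 6-month DKO replicates 2 and 3 (differences of −0.99 to −0.81, limma adjusted p = 0.0652 to 0.108). For Hspa5 it was lost without P36 control replicates 2 or 3, P36 DKO replicates 1 or 3, 6-month control replicates 2 or 3, or 6-month DKO replicates 1 or 2 (0.63 to 0.85, limma adjusted p = 0.0524 to 0.1).

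Between P36 and 6 months, 5 of the 10 genes were called in control, 3 higher and 2 lower at 6 months, against 63.1% of all genes (35.3% higher and 27.9% lower). The ages did not overlap for 5 of the 10 genes and for 69% of all genes. Dnajb1 (38.5 ± 9.74 to 67.9 ± 18.8 FPKM, log2 difference 0.80, limma adjusted p = 0.0042), Hspa1a (48.2 ± 12.8 to 82.0 ± 22.0, 0.75, limma adjusted p = 0.0194) and Hspa1b (112 ± 22.1 to 197 ± 75.4, 0.75, limma adjusted p = 0.0344) were higher at 6 months. Hspe1 (130 ± 16.7 to 57.0 ± 10.1, −1.18, limma adjusted p = 3.6e-05) and Hspa5 (216 ± 51.7 to 133 ± 17.2, −0.68, limma adjusted p = 0.0089) were lower. The count fell to 3 without control P36 replicate 1, without control 6-month replicate 2 and without control 6-month replicate 3, each time through the loss of Hspa1a (0.56 to 0.71, limma adjusted p = 0.0532 to 0.0852) and Hspa1b (0.48 to 0.72, limma adjusted p = 0.0805 to 0.149). Without control P36 replicate 2 Hspa1b alone was lost (0.76, limma adjusted p = 0.0689).

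In DKO 3 of the 10 genes were called between the ages, against 60% of all genes, with 28% higher and 32% lower. The ages did not overlap for 5 of the 10 and for 65.9% of all genes. Hspa8 was higher at 6 months (753 ± 92.7 to 1107 ± 52.0 FPKM, 0.56, limma adjusted p = 0.0010), and Hspb1 (1271 ± 285 to 621 ± 67.3, −1.01, limma adjusted p = 0.00046) and Bag3 (29.7 ± 2.37 to 18.8 ± 3.12, −0.64, limma adjusted p = 0.00089) were lower. The called genes of the 2 genotypes were thus Hspa1a, Hspa1b, Dnajb1, Hspa5 and Hspe1 in control, and Hspa8, Hspb1 and Bag3 in DKO. The difference between the 2 age effects is the same quantity as the difference between the genotype effects, which passed for Hspa1a, Hspb1, Hspa8, Hspa5, Bag3 and Hspe1 and not for Hspa1b (−0.94, limma adjusted p = 0.0866) or Dnajb1 (−0.61, limma adjusted p = 0.114). Hspe1 at 6 months was nearer its P36 level in DKO (113 after 142 FPKM) than in control (57.0 after 130). Beside the age values, hair shaft and matrix markers summed to 28450 to 32430 FPKM in P36 control and 11690 to 15820 in P36 DKO. At 6 months their sums were 54.06 to 71.97 FPKM in control and 34.44 to 62.85 in DKO. The part of those markers in the members' values was not tested.

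Among the 10 genes, Hspa1a and Hspa1b had the most similar pattern over the 12 libraries (Pearson's r = 0.97, and 0.96 for deviations from the group means), in genes that share reads. Hspb1 and Bag3 had r = 0.84 over all libraries and 0.28 for the deviations. Hspa1a and Hspb1 had 0.67 and 0.75, so these also varied alike within groups. Hspa8 and Hspa5 had 0.57 and 0.73. Hspa8 ran opposite to Bag3 (−0.86) and to Hspb1 (−0.85), with −0.29 and 0.09 for the deviations. These 12 points share 4 groups and 2 tables, and the coefficients are descriptions only.

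Over all genes, the pattern most like that of Hspa5 was Manf, a secreted neurotrophic factor (r = 0.88 over 12 libraries, 12764 genes compared), followed by Gpatch4, Lyar, Creld2 and Magohb (0.87 to 0.84). Manf averaged 47.3, 42.7, 34.0 and 52.2 FPKM in P36 control, P36 DKO, 6-month control and 6-month DKO. For Dnajb1 the most alike genes with a matched symbol were Ywhaz (0.92), Fgf1, Tollip and Lipo2 (0.90 to 0.89).

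The wider chaperone system was taken from 9 lists with 160 genes, members included. At P36, of 152 tested, 15 were higher and 9 lower in DKO, beside 23.3% called among all genes. The count of 24 fell to 14, 12 and 10 without control replicate 1, DKO replicate 2 and DKO replicate 3. At 6 months 59 of 152 were higher and 22 lower, beside 41.3% of all genes called, 23.2% higher and 18.2% lower. When keratin and cornified envelope genes were left out of the totals, 38 were higher and 36 lower, and over all genes 1840 were higher and 3430 lower in place of 2918 and 2289. The lists were drawn up with earlier results of these data known.

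**Figure D3:**
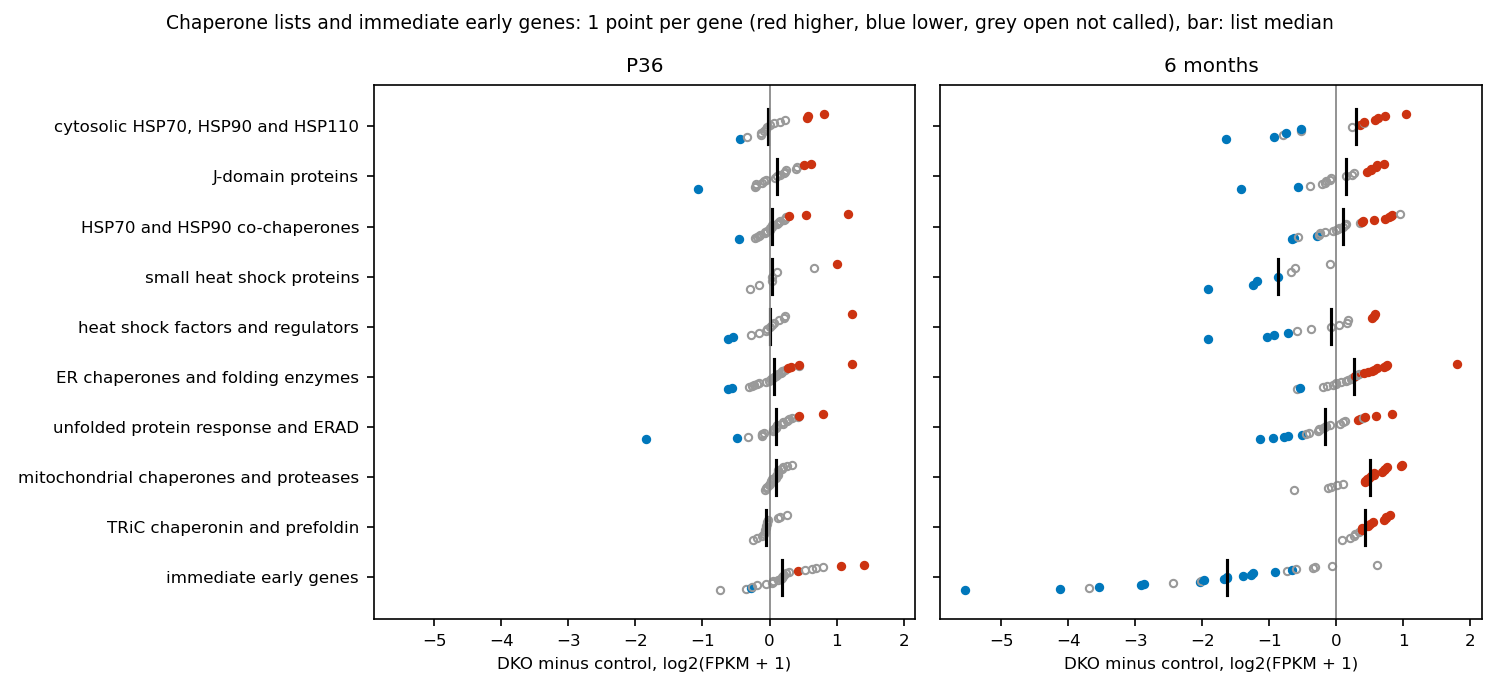
Genotype difference (horizontal axis, log2(FPKM + 1), DKO minus control) of each tested gene in the 9 chaperone lists and the immediate early genes, at P36 (left) and 6 months (right). Red points were higher, blue lower and open grey points not called, and the black bar is the list's median, −0.87 for small heat shock proteins and 0.50 for mitochondrial chaperones at 6 months.

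At 6 months 18.2% of all genes were called lower and 23.2% higher. Of 7 small heat shock proteins tested at that age, 4 were lower in DKO and none higher by limma. Their median was −0.87 against 0.04 over all genes. Hspb1 is 1 of these 4, and of the other 6 tested genes 3 were lower (median −0.77). Hspb8, the partner of Bag3, had 379, 350 and 302 FPKM in control and 81.1, 103 and 87.5 in DKO. The groups were far apart, and Hspb8 fell by 1.91 (SE 0.13, limma adjusted p = 0.00019). Cryab, the alpha-B crystallin, fell from 58.4 ± 3.35 to 24.7 ± 7.03 FPKM (−1.25, limma adjusted p = 0.0028). Beside these falls, 5 of 13 endothelium and smooth muscle markers were lower and none higher at 6 months, with sums of 208 to 265 FPKM in control and 83.7 to 161 in DKO. The lower ones were markers of smooth muscle and pericytes. Endothelial markers were not called and went both ways, with Pecam1 at 12.5 ± 2.82 FPKM in control and 13.1 ± 6.70 in DKO. The pericyte marker Rgs5 stood at 7.66 ± 2.93 and 15.5 ± 6.65 FPKM and was not called. Acta2, smooth muscle actin, fell from 84.1 ± 13.7 to 20.1 ± 9.11 FPKM (limma adjusted p = 0.0016) and Myh11, smooth muscle myosin, from 21.2 ± 2.68 to 2.92 ± 0.633 (limma adjusted p = 0.00015). Of 10 skeletal muscle markers tested, Des, the muscle intermediate filament desmin, was the 1 lower, at 26.2 ± 5.29 and 4.27 ± 2.45 FPKM (limma adjusted p = 0.0014). The part of these markers in the small heat shock genes was not tested. At P36 neither was called: Hspb8 had 140 ± 5.27 and 126 ± 13.1 FPKM and Cryab 123.2 ± 38.9 and 98.5 ± 17.4. The difference between the ages passed for both, −1.75 for Hspb8 (limma adjusted p = 6.5e-05) and −0.95 for Cryab (limma adjusted p = 0.0388). At P36 the 1 small heat shock gene called was Hspb6, which is abundant in muscle (3.53 ± 0.793 to 8.06 ± 1.35 FPKM, log2 difference 1.01, limma adjusted p = 0.0042). Beside it, 14 of 15 tested skeletal muscle markers were higher in the P36 DKO libraries, against 18% of all genes at P36. Their summed level was 182 to 743 FPKM against 23.1 to 42.0 in control, and their part in Hspb6 was not tested.

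Cytosolic HSP70, HSP90 and HSP110 genes went both ways at 6 months, with 6 higher and 4 lower of 14. Of all genes 23.2% were called higher and 18.2% lower. Hsp90ab1, the constitutive HSP90, fell from 686 ± 46.2 to 477 ± 35.4 FPKM (−0.52, limma adjusted p = 0.0083), while Hsp90aa1 was not called. Hspa2 fell from 14.6 ± 2.32 to 4.08 ± 1.66 FPKM (−1.65, limma adjusted p = 0.0019). Hspa4l, an HSP110 relative of Hsph1, rose from 12.8 ± 2.39 to 27.0 ± 2.96 FPKM (1.03, limma adjusted p = 0.0023), and it had also risen at P36, from 7.13 ± 1.04 to 13.3 ± 1.68 FPKM (0.81, limma adjusted p = 0.0041). Hsp90ab1 stood at 750 ± 80.8 and 711 ± 100 FPKM at P36 and was not called there.

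Of 17 J-domain proteins, 6 were higher and 2 lower at 6 months, near the 41.3% called over all genes, with Dnajb6, a suppressor of aggregation, rising from 68.7 ± 0.723 to 104 ± 4.02 FPKM (0.59, limma adjusted p = 0.0018) and Dnajb2 falling from 44.5 ± 4.37 to 29.7 ± 1.11 (−0.56, limma adjusted p = 0.0046). Of 23 co-chaperones of HSP70 and HSP90, 7 were higher and 3, Bag3 among them, lower, again near that share. Both HSP90 co-chaperones Sugt1 (21.4 ± 2.61 to 38.3 ± 4.25 FPKM, 0.81, limma adjusted p = 0.0028) and Chordc1 (33.8 ± 4.20 to 56.5 ± 3.48, 0.73, limma adjusted p = 0.0030) rose. The count of 10 co-chaperones fell to 6 without control replicate 3, and with totals without keratin genes it was 5 higher and 6 lower.

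Hsf1 transcripts did not differ detectably. At 6 months Hsf1 had 26.3, 26.0 and 24.5 FPKM in control and 26.4, 21.5 and 24.6 in DKO (−0.09, limma adjusted p = 0.539), and at P36 25.7 ± 3.23 and 25.8 ± 1.86 FPKM. Of 13 heat shock factors and regulators, 3 were higher and 4 lower at 6 months. Of all genes 23.2% were called higher and 18.2% lower. Hsbp1 stood at 78.08 ± 10.18 FPKM in 6-month controls and 115.2 ± 9.743 in DKO. Hikeshi stood at 11.03 ± 1.429 and 16.53 ± 2.999 FPKM, and the groups overlapped for neither gene. Among the lower were Hmox1, heme oxygenase 1, long known as a heat shock protein (74.2 ± 7.61 to 38.5 ± 2.40 FPKM, −0.93, limma adjusted p = 0.0011), and Sqstm1, the autophagy receptor p62 (88.9 ± 6.45 to 53.2 ± 3.72, −0.73, limma adjusted p = 0.0017).

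Of 25 ER chaperones and folding enzymes, Hspa5 included, 10 were higher and 1 lower at 6 months (median 0.26). The share called was near the 41.3% over all genes, of which 23.2% were higher and 18.2% lower. Without keratin genes in the totals 6 of the ER genes were higher and 1 lower. Ero1a, the oxidase that recharges protein disulfide isomerases, rose from 13.9 ± 0.411 to 51.1 ± 2.18 FPKM (1.81, limma adjusted p = 8.0e-05). Hsp90b1, the ER HSP90, had 139, 161 and 131 FPKM in control and 234, 264 and 230 in DKO, with no overlap (0.75, limma adjusted p = 0.0025). Pdia6 rose from 52.0 ± 5.97 to 87.3 ± 1.97 FPKM (0.74, limma adjusted p = 0.0020) and Canx, the lectin chaperone calnexin, from 63.8 ± 3.30 to 105.5 ± 10.01 (0.71, limma adjusted p = 0.0020). At P36 Hsp90b1 had 134 ± 17.4 and 146 ± 7.99 FPKM and was not called. The ER gene with the largest difference at P36 was Serpinh1, the collagen chaperone HSP47 (60.7 ± 15.7 to 141 ± 8.88 FPKM, 1.23, limma adjusted p = 0.0019). Beside it, 9 of 14 dermal fibroblast markers were higher in the P36 DKO libraries, against 18% of all genes at P36. Their sums were 1219 to 1638 FPKM against 647 to 1262 in control, and their part in Serpinh1 was not tested.

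The sensors and targets of the unfolded protein response did not follow one direction. Of 23 tested with ER-associated degradation genes, 5 were higher and 5 lower at 6 months. Those counts were near the shares over all genes, 23.2% higher and 18.2% lower. Without keratin genes in the totals 2 were higher and 10 lower. The count of 10 fell to 6 without control replicate 2 or DKO replicate 1 and to 4 without DKO replicate 2. Of the transcription factors of the response, Xbp1 (120 ± 8.76 and 132 ± 16.2 FPKM), Atf4 (169 ± 71.1 and 143 ± 7.70) and Ddit3 (14.69 ± 3.58 and 15.01 ± 1.04) were not called. Asns, an Atf4 target that makes asparagine, rose from 13.3 ± 0.0557 to 24.7 ± 2.54 FPKM (0.84, limma adjusted p = 0.0013), and Herpud1, a degradation factor of the ER membrane, fell from 90.7 ± 20.1 to 54.1 ± 5.11 (−0.72, limma adjusted p = 0.0129).

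Of 18 mitochondrial chaperones and proteases, Hspe1 included, 13 were higher at 6 months and none lower (median 0.50). Of all genes 23.2% were called higher and 18.2% lower. With totals without keratin genes 8 were higher and 1 lower. Hspd1, the HSP60 that Hspe1 caps, had 48.4, 51.3 and 51.2 FPKM in control and 92.2, 114 and 92.7 in DKO. The groups were far apart (log2 difference 0.96, SE 0.11, limma adjusted p = 0.00092). Hspa9, the mitochondrial HSP70 that pulls proteins through the import channel, rose from 59.4 ± 3.57 to 101 ± 7.17 FPKM (0.75, limma adjusted p = 0.0014). At P36 none of the 18 was called by limma, beside 23.3% of all genes, with 1 at an unadjusted p under 0.05. Hspd1 had 102 ± 8.99 and 105 ± 4.50 FPKM and Hspa9 79.1 ± 2.26 and 86.9 ± 7.27 at P36. The difference between the ages passed for both, 0.93 for Hspd1 (limma adjusted p = 0.00069) and 0.62 for Hspa9 (limma adjusted p = 0.0032).

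The cytosolic chaperonin TRiC and prefoldin, which fold actin and tubulin, had 9 of 14 higher and none lower at 6 months (median 0.43). Of all genes 23.2% were called higher and 18.2% lower. At P36 none of the 14 was called by limma, beside 23.3% of all genes, with 0 at an unadjusted p under 0.05. Cct8 rose from 57.5 ± 2.75 to 101 ± 7.94 FPKM (0.80, limma adjusted p = 0.0012) and Cct5 from 95.1 ± 5.71 to 156 ± 11.5 (0.71, limma adjusted p = 0.0018). With totals without keratin genes 7 of 14 were higher and none lower.

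**Figure D4:**
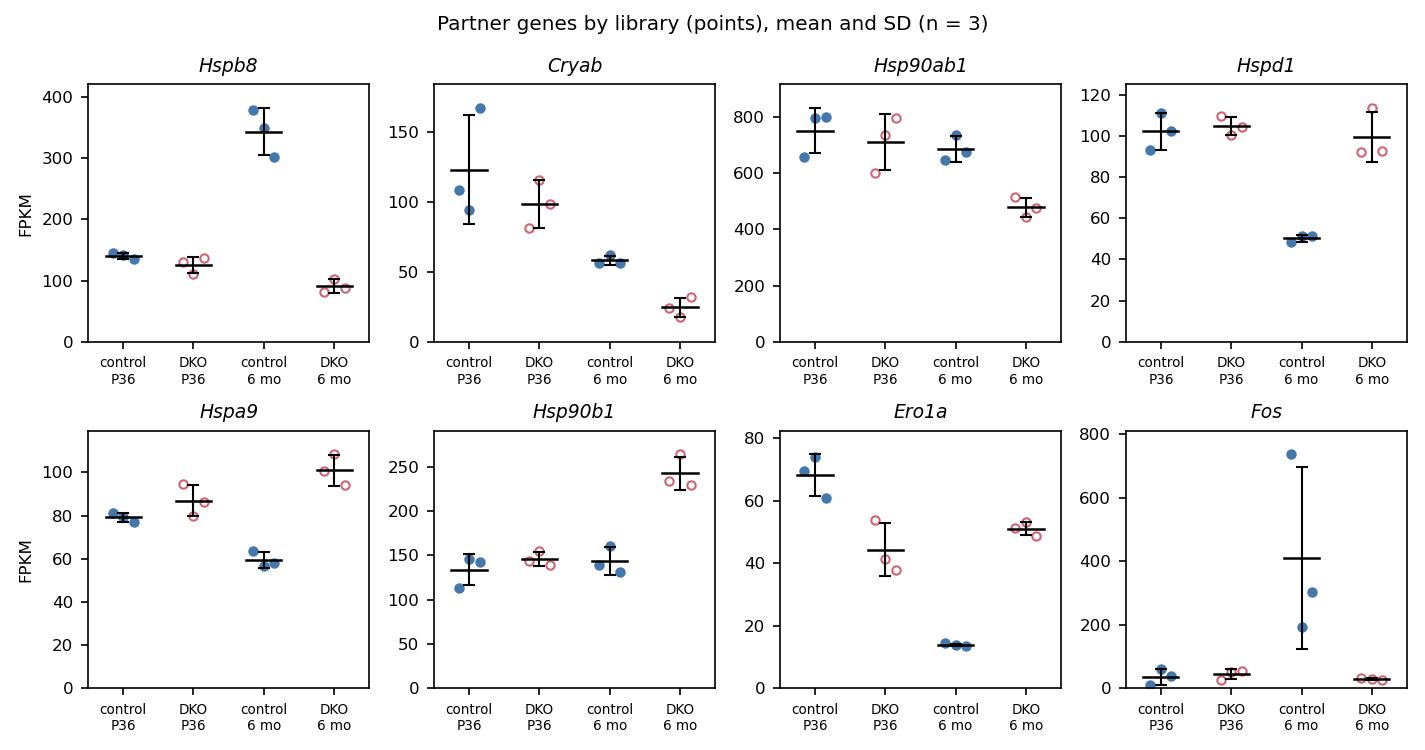
FPKM (vertical axis, from 0) of partner genes in each of the 12 libraries (points), with the mean and SD of 3 libraries as bars. Hspb8, Cryab, Hsp90ab1 and Fos are lower, and Hspd1, Hspa9, Hsp90b1 and Ero1a higher, in DKO at 6 months, and Fos spans 193 to 737 FPKM among the 6-month controls.

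Immediate early genes, which respond within minutes to handling of tissue, are given beside the heat-inducible genes, since the skin was warmed and peeled. At 6 months 15 of 24 were lower in DKO by limma and none higher (median −1.63), with 17 lower and 0 higher at an unadjusted p under 0.05. Of all genes 18.2% were called lower and 23.2% higher. Fos had 737, 193 and 304 FPKM in control and 33.5, 30.4 and 24.9 in DKO. All controls were above the DKO libraries, but they spread widely among themselves (log2 difference −3.53, SE 0.44, limma adjusted p = 0.0013). Dusp1 fell from 347 ± 129 to 44.9 ± 5.11 FPKM (−2.87, limma adjusted p = 0.00035) and Jund from 215 ± 79.0 to 66.4 ± 9.36 (−1.63, limma adjusted p = 0.0024). The control library with the highest Fos, replicate 1, had the lowest Hspa1a and Hspa1b of the 3 controls (59.0 and 122 FPKM) and the highest Dnajb1 (87.9 FPKM). In control, 16 of these 24 immediate early genes were also higher at 6 months than at P36, beside 35.3% of all genes. Whether the 15 lower genes and the lower Hspa1a and Hspb1 share a source was not tested.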

How the data were processed

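Total RNA of 12 epidermis libraries was depleted of ribosomal RNA with RNase H and read as 50-base single ends, per the labels' protocols. The authors deposited 1 table per age with FPKM values, with the authors' own log2 ratio, p-value and q-value per gene beside them, per the file headers. The sources used here do not give the test behind those. HISAT2 2.1.0 and RSEM 1.2.8 are named, with human builds for these mouse samples, per the submitters' processing notes, so no coordinates come from the files. The age of a table was taken from its name. Identifiers were matched to RefSeq symbols of GRCm38.p6 (19343 of 19392 at P36, 17712 of 17750 at 6 months).

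In R 4.3.3, limma 3.58.1 (limma-trend) was fitted to log2(FPKM + 1) for genes that reached 1 FPKM in 3 or more libraries, on the 6 libraries of each age, and on all 12 for the difference between ages and the age effects. This scale understates changes of low genes. All 10 members passed the filter in each fit. P-values were adjusted over all genes by the Benjamini-Hochberg method and called below 0.05. The fits were also run on simulated data with independent noise and a small set of changed genes. That setting differs from these data, so the run does not test the calls given here. The members and lists were chosen with earlier results of these data known. Named genes are the 10 members, a fixed set of key chaperones and regulators, up to 3 called genes per list and direction with the smallest adjusted p (the text names part of them), the targeted genes and the 5 genes most alike 2 members; Xbp1, Atf4 and Ddit3 belong to the fixed set. Shared 50-base windows were found in GENCODE M21 transcripts. Alternatives were a pseudocount of 0.1, no filter or a filter of 5 FPKM, median-ratio scaling, totals without keratin and cornified envelope genes, a constant variance prior, a joint fit, a replicate block, each library left out, and, chosen after seeing the data, Hspa1a and Hspa1b summed.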

Additional observations from a re-analysis of the deposited data

Results flagged for a closer look

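The genotype difference of 6 members differed between P36 and 6 months by the test of that difference itself (limma, 12 libraries, 6 months minus P36, log2 scale). Hspb1 gave −1.221, Hspa1a −0.9975 and Bag3 −0.9076, so that DKO moved down relative to control between the ages. Hspa8 gave 0.7663, Hspa5 0.796 and Hspe1 0.8512, in the other direction. No alternative changed the call of Hspb1, Bag3, Hspa8 or Hspe1. The call of Hspa1a was lost in 12 of 20 alternatives, with adjusted p up to 0.108, and that of Hspa5 in 10 of 19, with adjusted p up to 0.1.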

How the results depend on the processing

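No member was called at P36 under any of the alternatives run. At 6 months 5 to 7 members were called and for the difference between ages 4 to 7. The call for Hspb1, Hspa8, Hspe1 and Bag3 at 6 months held under all 14 alternatives. Hspb1 ranged from −1.38 to −1.10 and Hspa8 from 0.52 to 0.76, Hspe1 from 0.79 to 1.095 and Bag3 from −0.85 to −0.52. The Hspa1b call at 6 months appeared when keratin and cornified envelope genes were left out of the totals (−0.99, limma adjusted p = 0.0435) and in the joint fit (limma adjusted p = 0.0369). For the difference between ages Hspa1b was called with those totals (−1.08, limma adjusted p = 0.0496), without 6-month control replicate 1 (−1.245, limma adjusted p = 0.0182) and without 6-month DKO replicate 1 (−1.16, limma adjusted p = 0.0463), and Dnajb1 without P36 control replicate 3 (−0.80, limma adjusted p = 0.0393) and without 6-month control replicate 3 (−0.80, limma adjusted p = 0.0405). For age, Bag3 was called in control without P36 replicate 3 (0.34, limma adjusted p = 0.0468) and with those totals (0.40, limma adjusted p = 0.0186). Within DKO, Hspe1 was called lower at 6 months with those totals (−0.32, limma adjusted p = 0.04998), and Hsp90aa1 higher without P36 replicate 1 (0.43, limma adjusted p = 0.0335). Those totals moved the median of all genes at 6 months from 0.04 to −0.13 and the calls from 2918 higher and 2289 lower to 1840 and 3430. Median-ratio scaling at P36 moved them from 2275 higher and 674 lower to 1700 and 965.

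The labels do not say whether replicate numbers pair the libraries. Same-numbered libraries had correlations of deviations of 0.13, −0.06 and −0.12 at P36 and −0.06, 0.03 and 0.18 at 6 months. Libraries with other numbers had −0.21 to 0.23. With 3 libraries per group these values cannot settle whether a pairing exists. With the replicate block, 2607 genes and 0 members were called at P36, 4862 genes and 6 members at 6 months, and 6 members for the difference between ages. For age in control the block left 3 members called, without Hspa5 (−0.42, limma adjusted p = 0.0955) and Hspa1b (0.95, limma adjusted p = 0.0977), and for age in DKO 5190 genes against 7969. Under the block the age values in DKO were 0.061 for Hspa1a and 0.012 for Hspa1b, and in control 0.0072 for Hsp90aa1.

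Some differences that were not called changed sign. At P36, median-ratio scaling gave −0.028 for Hspa1a, −0.060 for Hspb1, −0.087 for Hsf1 and −0.064 for Hspd1, and totals without keratin genes −0.016 for Hspb1, −0.045 for Hsf1 and −0.020 for Hspd1. At 6 months those totals gave −0.072 for Xbp1 and −0.13 for Ddit3, and median-ratio scaling −0.0058 for Ddit3. For age in control those totals gave 0.051 for Hsph1 and 0.10 for Hsp90aa1. The cause was not tested.

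Leaving out 1 library each at P36 gave −0.11 to 0.26 for Hspa1a, −0.071 to 0.24 for Hspb1, −0.25 to 0.054 for Hsph1, −0.26 to 0.011 for Hsp90aa1, −0.12 to 0.055 for Hspa8, −0.041 to 0.11 for Hsf1, −0.17 to 0.034 for Hsp90ab1 and −0.026 to 0.10 for Hspd1. At 6 months it gave −0.15 to 0.17 for Ddit3 and −0.38 to 0.16 for Atf4. For age in control it gave −0.29 to 0.16 for Hsph1, −0.17 to 0.10 for Hsp90aa1 and 3 to 6 members called. For age in DKO it gave −0.41 to 0.0021 for Hspa1b and −0.017 to 0.29 for Hspa5. All genes called at P36 ranged from 1662 to 2660, lowest without DKO replicate 2 and at 1697 without DKO replicate 3. Read depth is unknown, so its limits could not be given.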
